A study of Mus musculus with 12 samples.

Results

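The receptor complex through which cells sense lipopolysaccharide (LPS), with its adaptors and first kinases, was followed in MLE-12 cells injured by LPS or by hyperoxia and treated or not with exosomes of M2 macrophages (M2-Exo). It was taken as 10 genes by symbol, Tlr4, Ly96, Cd14, Myd88, Ticam1, Ticam2, Tirap, Irak1, Irak4 and Traf6, of the 34745 genes in the deposited table. All 10 had counts and all 10 passed the filter on low counts in every comparison.

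LPS-binding protein hands LPS to CD14, which passes it to MD-2 (encoded by Ly96) on the ectodomain of TLR4. At the plasma membrane TIRAP and MyD88 then assemble IRAK4, IRAK1 and the ubiquitin ligase TRAF6, which lead to NF-kB and inflammatory cytokines, whereas from endosomes TRAM (Ticam2) and TRIF (Ticam1) lead to interferon regulatory factors and interferon-stimulated genes. In the lung the complex is best known from alveolar macrophages, and alveolar epithelial (AT) cells respond to LPS as well.

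MLE-12 is a mouse AT II cell line immortalised with SV40 large T antigen under a surfactant protein C promoter, so every library came from 1 transformed line. Of the 4 groups of 3 libraries, LPS was exposed to 100 ng/mL LPS in 21% oxygen, LPS + M2-Exo received 10 µg/mL M2-Exo in addition, Hyp was kept in 85% oxygen without LPS, and Hyp + M2-Exo received the same dose of M2-Exo. All cells were collected at 24 h by their labels and no group was left uninjured, so M2-Exo was compared within each injury, and LPS was compared with hyperoxia. LPS, oxygen and any difference in handling between both sets of libraries cannot be told apart in the latter comparison. Nothing in the labels said that replicates were separate cultures, so p-values measure the spread between these libraries, which may be technical.

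Libraries held between 16021833 and 24074616 counts. Contents are given as CPM, the count of a gene relative to the library's total scaled by TMM, and contents of different genes are compared only as FPKM, which divides by gene length. Of the 18 AT cell markers, Abca3, Krt8 and Nkx2-1 were readily detected, whereas Epcam stayed under 1 CPM in every group's median and Sftpa1 and Sftpd had at most 1 count in any library. Transcripts of macrophage markers were counted in all libraries, although Chil3 and Retnla had 0 counts in each of them and Marco had 0 in the Hyp + M2-Exo libraries. In bulk samples fewer cells of a type and less RNA per cell cannot be told apart.

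Per gene length, the coreceptor Cd14 was the most abundant of the 10 genes in the LPS libraries, with a mean of 28.7 FPKM ± 2.18 (SD, n = 3), followed by Myd88 with 11.5 ± 0.370, Ticam1 with 9.70 ± 0.710 and Traf6 with 7.56 ± 0.185. Irak1 (4.62) and Tirap (4.22) came next, and their libraries did not overlap, with Irak4 (1.93) below both. The receptor Tlr4 was the lowest, with 0.493 ± 0.00930, below Ticam2 with 0.858 ± 0.0953 and Ly96 with 1.04 ± 0.302, the latter pair overlapping. In Hyp, Cd14 fell to 14.8 FPKM ± 0.785, and its range overlapped that of Myd88 (14.1 ± 0.481), while Traf6 stood at 12.1 ± 0.111 below both. The least abundant there was Ticam2 (0.253 ± 0.0145), although 1 Hyp library had less Tlr4 (0.0940) than any Hyp library had Ticam2.

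**Figure D1:**
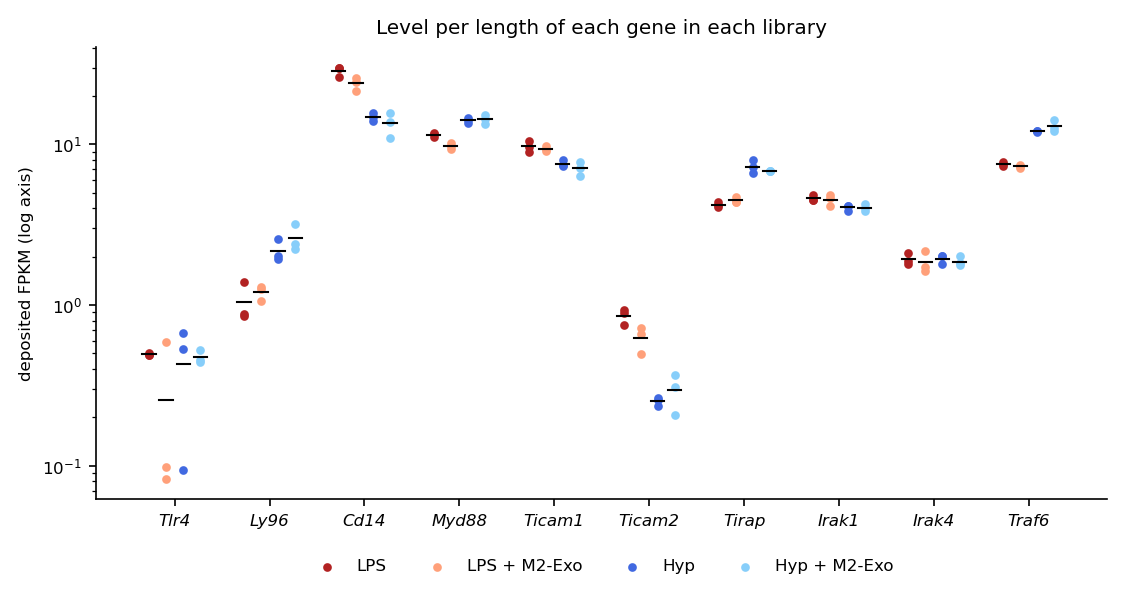
Deposited FPKM of each gene (log axis) in each of the 12 libraries, coloured by group, with a bar at the mean of 3. Cd14, Myd88, Ticam1 and Traf6 stood above 6 FPKM in all libraries, whereas Tlr4 and Ticam2 stayed below 1.

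Tlr4, the signalling receptor (chr4:66827584-66930284, plus strand, GRCm38), had few reads and differed more among replicates than between groups. Its counts were 62, 65 and 63 in LPS and 72, 65 and 72 in Hyp + M2-Exo. They were 11, 9 and 74 in LPS + M2-Exo and 106, 14 and 87 in Hyp. In both of the latter groups some libraries lay far below the other replicates, so no group was separate from another.

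With M2-Exo the fitted log2 fold change of Tlr4 was −0.88 in the LPS cells, with a 95% confidence interval from −2.25 to 0.49, and 0.12 in the hyperoxia cells, from −1.06 to 1.31. Neither passed the edgeR quasi-likelihood test (Benjamini-Hochberg adjusted p = 0.644 and 0.95). Both intervals span a large fall as well as no change, so M2-Exo was not shown to leave Tlr4 as it was. A single library decided the LPS result. Without the third LPS + M2-Exo library the log2 fold change was −2.43 and passed (edgeR adjusted p = 0.0219), and the comparison of LPS + M2-Exo with Hyp + M2-Exo moved from −0.75 (adjusted p = 0.288) to −2.28 (adjusted p = 0.000216). Without the second Hyp library the hyperoxia value changed sign, to −0.34.

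The genes whose contents followed Tlr4 most closely over the 12 libraries were Gm42748 (Pearson r = 0.879), Fer1l6 (r = 0.814) and Insl6 (r = 0.808), among 14187 genes on a log2 CPM scale. All were low, with group means of at most 2.24 CPM, and none lies on the chromosome of Tlr4. These correlations describe shared rises and falls of weakly counted genes in the same libraries.

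Ly96, which encodes the LPS-binding partner of TLR4 (chr1:16688051-16709611, plus strand), was higher in hyperoxia than in LPS. Its contents were 1.43, 2.26 and 1.40 CPM in LPS, 1.74, 2.14 and 2.07 CPM in LPS + M2-Exo, 2.98, 3.95 and 3.09 CPM in Hyp, and 3.46, 3.66 and 4.94 CPM in Hyp + M2-Exo. All hyperoxia libraries lay above all LPS libraries, and the libraries with and without M2-Exo overlapped. The log2 fold change of LPS over Hyp was −0.97 (SE 0.228, edgeR adjusted p = 0.00488) without M2-Exo and −1.01 (SE 0.201, adjusted p = 0.00193) with it. Ly96 rests on 26 to 42 counts per LPS library and 72 to 90 per Hyp library. Its closest genes were Them4 (r = 0.965), Dcps (r = 0.965) and Wdr20 (r = 0.963), all of them likewise higher in hyperoxia.

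Cd14, the coreceptor that loads LPS onto MD-2 (chr18:36725074-36726736, minus strand), went the other way. Its contents were 48.5, 48.3 and 42.7 CPM in LPS, 39.6, 34.8 and 42.3 CPM in LPS + M2-Exo, 22.4, 23.7 and 21.3 CPM in Hyp, and 24.1, 21.1 and 16.7 CPM in Hyp + M2-Exo. LPS libraries stood above hyperoxia libraries throughout, and with M2-Exo the 3 LPS libraries fell just below those without it, by 0.372 CPM at the nearest.

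Cd14 was 2.07-fold higher in LPS than in Hyp (log2 fold change 1.05, SE 0.071, edgeR adjusted p = 3.68e-06) and 1.89-fold higher with M2-Exo on both sides (0.91, SE 0.135, adjusted p = 0.00036). The log2 fold change for M2-Exo in LPS was −0.26 (95% interval −0.46 to −0.06), with an unadjusted edgeR p of 0.0182 that did not pass after adjustment (0.343). In hyperoxia it was −0.13 (−0.42 to 0.16), and the difference between both effects, −0.13 (SE 0.165), did not pass either (adjusted p = 0.832).

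The genes closest to Cd14 were Cd53 (r = 0.996), Lilr4b (r = 0.993) and Prex1 (r = 0.993), the first a leukocyte tetraspanin and the second a leukocyte immunoglobulin-like receptor. Cd53 averaged 23.3 CPM in LPS, 17.0 in LPS + M2-Exo, 6.40 in Hyp and 5.23 in Hyp + M2-Exo. The 20 macrophage markers, summed, were likewise highest in LPS and next in LPS + M2-Exo, although not every single marker was. Both hyperoxia groups lay below and overlapped. The summed CPM of the markers ranged from 507.7 to 569.2 in LPS, from 405.7 to 454.6 in LPS + M2-Exo, from 131.2 to 137.1 in Hyp and from 103.2 to 153.5 in Hyp + M2-Exo. Of the 15 tested between LPS and Hyp, 12 were higher and 2 (Itgax and Mertk) lower in LPS by adjusted p, with and without M2-Exo. Among the higher ones were the pan-leukocyte phosphatase Ptprc, the colony-stimulating factor receptor Csf1r and the transcription factor Spi1. Of all genes tested, 75.8% passed without M2-Exo (37.8% higher and 38.0% lower) and 73.7% with it (36.5% higher and 37.1% lower). With M2-Exo in LPS, 12 of 14 markers were fitted lower, 10 of them with an unadjusted edgeR p under 0.05 and none by adjusted p. Of all genes, 11.1% had such an unadjusted p in either direction. The markers Arg1, Chil3, Retnla, Cd163 and Siglecf had medians of at most 0.0802 CPM in every group, Mrc1 had medians of at most 1.40 CPM, Itgax had a median of 0 in both LPS groups and Marco in both hyperoxia groups. The part of macrophage transcripts in the contents of Cd14 was not tested.

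**Figure D2:**
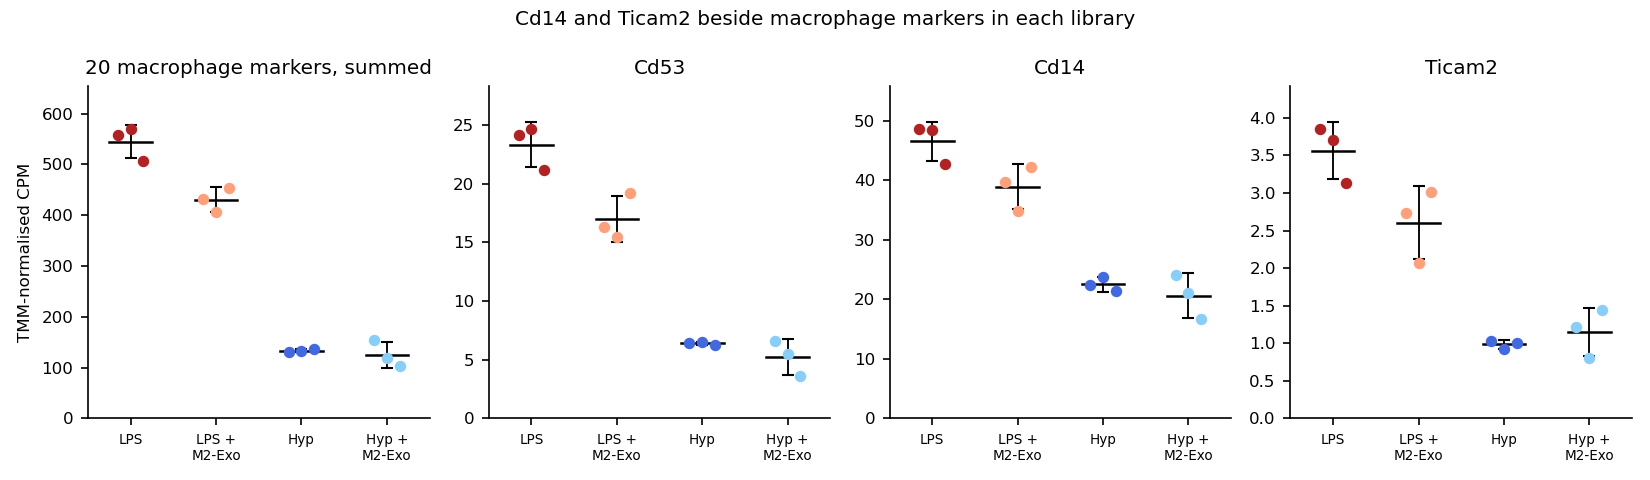
TMM-normalised CPM per library of the 20 macrophage markers summed, of Cd53, and of Cd14 and Ticam2, with the mean and SD of 3 libraries per group. All 4 panels were highest in LPS (summed markers 507.7 to 569.2) and intermediate in LPS + M2-Exo (405.7 to 454.6), while both hyperoxia groups overlapped at the bottom.

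Among the adaptors, Myd88 (chr9:119335934-119341411, minus strand), which bridges the receptor to the IRAK kinases, was the member with the smallest p-value for M2-Exo in LPS. Its contents were 55.1, 55.8 and 52.9 CPM in LPS, 46.8, 48.6 and 44.5 CPM in LPS + M2-Exo, 61.0, 63.4 and 65.0 CPM in Hyp, and 69.0, 59.8 and 64.7 CPM in Hyp + M2-Exo. Each LPS library with M2-Exo was below each without it, whereas the hyperoxia groups overlapped.

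The log2 fold change of Myd88 with M2-Exo was −0.23 in LPS (SE 0.053, 95% interval −0.35 to −0.11), or 1.17-fold lower. Its unadjusted p in edgeR was 0.00266 and its adjusted p 0.207, so it was not called. In hyperoxia the value was 0.03 (−0.12 to 0.17). The difference between both effects was −0.26 (SE 0.082, edgeR adjusted p = 0.368). Myd88 was the only member with an unadjusted edgeR p under 0.05 for it, at 0.00854. Between the injuries Myd88 was lower in LPS, by a log2 fold change of −0.21 without M2-Exo (edgeR adjusted p = 0.00362) and −0.47 with it (adjusted p = 0.000357).

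Promoter sequences were at hand for 6 of the 10 genes, Myd88, Ticam1, Tirap, Irak1, Irak4 and Traf6. They were taken from RefSeq on GRCm38.p6 as 250 bases before and 50 after each start site, and searched on both strands for 5 motifs. These were an interferon-response type motif (GAAANNGAAA), a STAT type motif (TTCNNNGAA), the NF-kB consensus, an AP-1 motif (TGANTCA) and the GC box (GGGCGG). Those of 3 genes are printed, up to the exon annotated at the start site. They are examples of genes lower (Myd88 and Traf6) or higher (Ticam1) in LPS than in hyperoxia. Tirap was lower and Irak1 higher as well, and theirs are not printed. Capitals mark the interferon-response type motif and the GC boxes.
Myd88: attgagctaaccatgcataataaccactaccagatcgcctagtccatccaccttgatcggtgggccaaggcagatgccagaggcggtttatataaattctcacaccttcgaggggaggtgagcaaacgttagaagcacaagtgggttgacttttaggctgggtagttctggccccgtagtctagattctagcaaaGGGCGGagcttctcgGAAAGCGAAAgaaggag
Traf6: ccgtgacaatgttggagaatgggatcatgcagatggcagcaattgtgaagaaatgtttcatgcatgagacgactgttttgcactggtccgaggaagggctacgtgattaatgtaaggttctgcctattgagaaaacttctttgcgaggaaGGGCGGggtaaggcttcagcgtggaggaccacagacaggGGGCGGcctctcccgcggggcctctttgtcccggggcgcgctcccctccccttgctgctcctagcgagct
Ticam1: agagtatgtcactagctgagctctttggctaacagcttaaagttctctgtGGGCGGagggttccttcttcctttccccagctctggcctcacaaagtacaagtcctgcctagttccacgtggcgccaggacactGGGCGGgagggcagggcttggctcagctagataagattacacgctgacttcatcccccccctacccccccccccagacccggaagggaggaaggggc
The Myd88 stretch is chr9:119340042-119340268 (minus strand), that of Traf6 chr2:101678170-101678428 (plus strand) and that of Ticam1 chr17:56276787-56277017 (minus strand). The Myd88 stretch lies inside the annotated gene, downstream of a further exon in GENCODE M21 (chr9:119341345-119341411), whereas those of Traf6 and Ticam1 lie upstream of every annotated exon. Myd88 alone of the 6 genes held the interferon-response type motif, at bases −40 to −31 from its start site. A STAT type match at −46 to −38 overlapped it and was found on both strands, since the pattern TTCNNNGAA reads the same on both. The interferon-response type motif was present in 3.44% and the STAT type motif in 8.30% of all 32851 promoters of that length. GC boxes were found in the promoters of all 6 genes and in 35.7% of all promoters. The NF-kB consensus (4.51% of promoters) and the AP-1 motif (7.81%) were in none of these windows, which says only that these letters are absent there.

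Both adaptor pairs differed between the injuries, in opposite directions. Tirap, like Myd88, was lower in LPS, and Ticam1 and Ticam2 were both higher. Tirap, which brings MyD88 to the membrane (chr9:35184551-35200291, minus strand), had 34.8, 34.0 and 36.8 CPM in LPS, 39.5, 36.6 and 36.8 CPM in LPS + M2-Exo, 62.5, 56.4 and 52.0 CPM in Hyp, and 54.2, 53.5 and 53.8 CPM in Hyp + M2-Exo. All LPS libraries were below all hyperoxia libraries. The log2 fold change of LPS over Hyp was −0.69 (SE 0.075, edgeR adjusted p = 5.94e-05), and −0.52 (SE 0.056, adjusted p = 5.64e-05) with M2-Exo.

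Ticam1, which encodes TRIF (chr17:56269319-56276786, minus strand), was higher in LPS instead. Its contents were 32.0, 27.6 and 29.9 CPM in LPS, 28.0, 30.5 and 28.8 CPM in LPS + M2-Exo, 23.1, 21.1 and 21.5 CPM in Hyp, and 22.7, 20.7 and 18.4 CPM in Hyp + M2-Exo. The injuries did not overlap, at a log2 fold change of 0.45 (SE 0.072, edgeR adjusted p = 0.00063) without M2-Exo and 0.50 (SE 0.090, adjusted p = 0.00117) with it.

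Ticam2, which encodes the bridging adaptor TRAM (chr18:46559155-46574533, minus strand), showed the widest gap between the injuries of the 10 genes, on few counts. It had 70, 69 and 58 counts in LPS, 44, 32 and 54 in LPS + M2-Exo, 25, 21 and 25 in Hyp and 29, 18 and 30 in Hyp + M2-Exo. Every library with LPS held more than any hyperoxia library, and every LPS + M2-Exo library fewer than any LPS library. Scaled to CPM, LPS + M2-Exo lay below LPS by only 0.111 CPM at the nearest. The fitted ratio of LPS to Hyp was 3.59-fold (log2 fold change 1.84, SE 0.168, edgeR adjusted p = 2.12e-05), and with M2-Exo 2.27-fold (1.19, SE 0.262, adjusted p = 0.00354).

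For M2-Exo in LPS the log2 fold change of Ticam2 was −0.44 (95% interval −0.87 to −0.02, unadjusted p = 0.0419 and adjusted p = 0.431 in edgeR). In hyperoxia it was 0.21 (−0.38 to 0.81), and the difference between both was −0.66 (SE 0.316, adjusted p = 0.531). Ticam2 overlaps Tmed7 on the same strand, which had 3036 to 4665 counts per library, and how reads of the overlap were assigned is not given in the sources used here. Tmed7 itself had a log2 fold change of 0.05 for LPS over Hyp (edgeR adjusted p = 0.146) and of 0.03 for M2-Exo in LPS (adjusted p = 0.781). The summed macrophage markers given above were likewise lower in LPS + M2-Exo than in LPS and lowest in hyperoxia, and their part in its contents was not tested. Myd88, Tirap and Irak4 also overlap a neighbour, Acaa1a, Srpr and Twf1, each on the opposite strand, and Myd88 also overlaps Slc22a14 on its own strand, which had 4 to 13 counts per library.

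Of the kinases, Irak1 (chrX:74013914-74023918, minus strand) was slightly higher in LPS. Its contents were 60.8, 65.0 and 61.3 CPM in LPS, 62.3, 65.3 and 56.2 CPM in LPS + M2-Exo, 52.7, 52.4 and 49.0 CPM in Hyp, and 51.2, 54.4 and 48.5 CPM in Hyp + M2-Exo. The groups of both injuries were apart, with and without M2-Exo. The log2 fold change was 0.28 (SE 0.052, edgeR adjusted p = 0.00137) without M2-Exo and 0.25 (SE 0.073, adjusted p = 0.0131) with it. The latter no longer passed when libraries were scaled by size alone (0.16, adjusted p = 0.0719) or when FPKM were tested with limma (0.13, adjusted p = 0.102).

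Irak4, the kinase that phosphorylates IRAK1 (chr15:94543643-94581815, plus strand), kept group means between 9.80 and 10.8 CPM. The groups overlapped in every comparison. Its log2 fold change of LPS over Hyp was 0.08 (95% interval −0.14 to 0.30, edgeR adjusted p = 0.458), and with M2-Exo 0.08 (−0.22 to 0.37, adjusted p = 0.618). Its sign turned negative with scaling by library size alone, at −0.008 and −0.015.

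Traf6, the ubiquitin ligase downstream of the IRAK kinases (chr2:101678429-101701669, plus strand), was lower in LPS. Its contents were 66.1, 67.8 and 69.9 CPM in LPS, 64.5, 66.5 and 67.0 CPM in LPS + M2-Exo, 101.2, 102.4 and 102.3 CPM in Hyp, and 102.8, 107.5 and 119.4 CPM in Hyp + M2-Exo. The LPS libraries with and without M2-Exo overlapped, whereas all 3 Hyp + M2-Exo libraries were above all Hyp libraries, by 0.437 CPM at the nearest. The log2 fold change of LPS over Hyp was −0.59 (SE 0.039, edgeR adjusted p = 3.44e-06) and, with M2-Exo, −0.74 (SE 0.064, adjusted p = 1.57e-05). For M2-Exo in hyperoxia it was 0.10 (95% interval −0.03 to 0.24, adjusted p = 0.62).

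**Figure D3:**
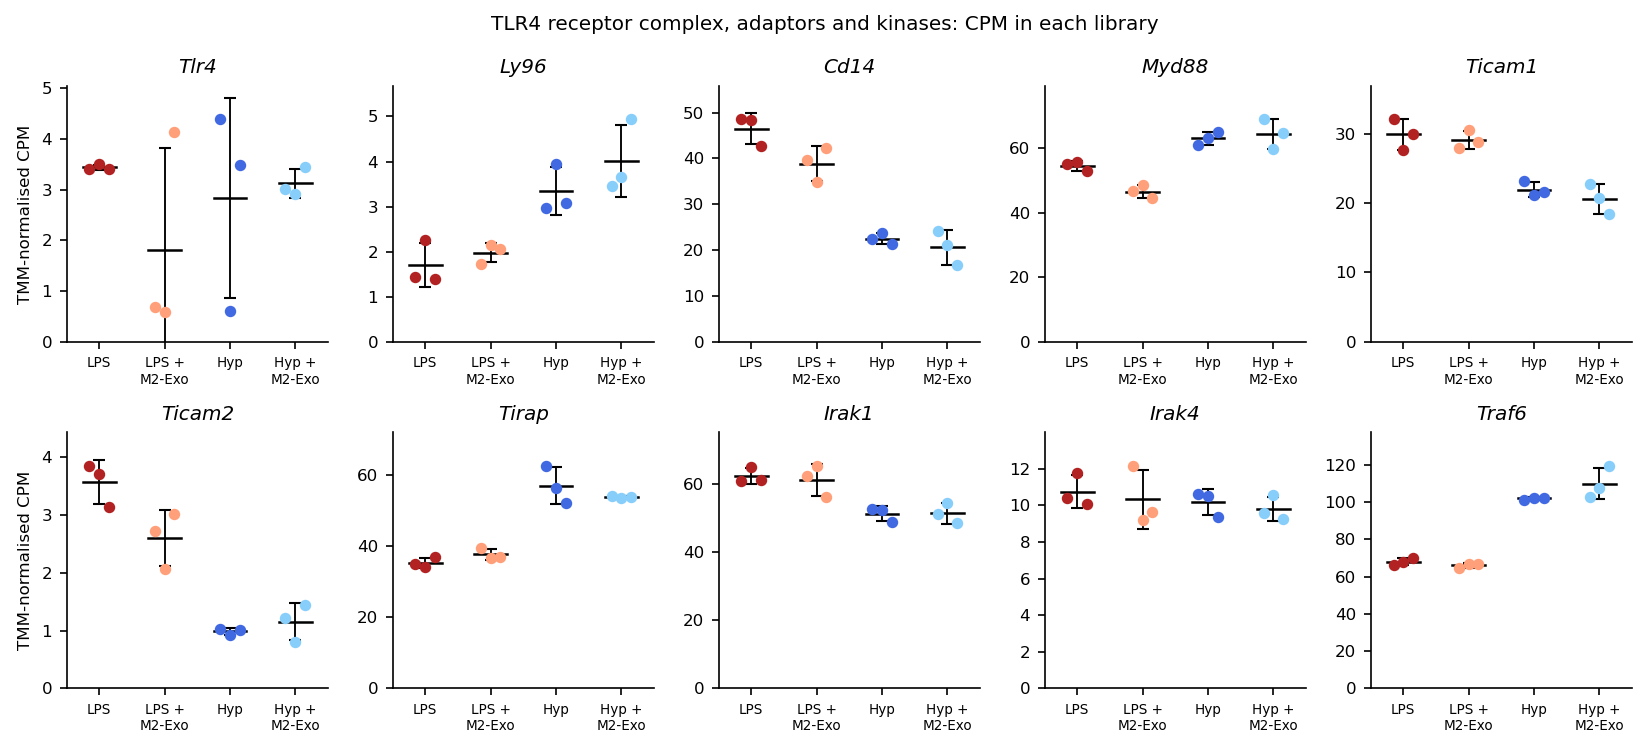
TMM-normalised CPM of the 10 genes in each of the 12 libraries, each panel from 0, with the mean and SD of 3 libraries per group. Cd14, Ticam1, Ticam2 and Irak1 were higher in the LPS groups and Ly96, Myd88, Tirap and Traf6 in the hyperoxia groups, while Tlr4 had isolated low libraries (0.583, 0.682 and 0.614 CPM).

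Over the 10 genes, 0 passed for M2-Exo in either injury by adjusted p in edgeR, and 0 of those to which DESeq2 gave an adjusted p (Ly96 had none in LPS). In LPS, 0.187% of the 13353 genes tested passed and in hyperoxia 0.101% of 13815. At an unadjusted p under 0.05 in edgeR, 3 of 10 were lower with M2-Exo in LPS, Myd88, Cd14 and Ticam2, beside 11.1% of all genes in either direction. The same 3 were the members whose libraries did not overlap there, as did 17.2% of all genes. In hyperoxia 0 of 10 reached an unadjusted p under 0.05 (8.48% of all genes), and only Traf6 had libraries that did not overlap (16.0%). The difference between the effects of M2-Exo in both injuries, tested as an interaction, passed for 0 of 10 members (0.0352% of 14187 genes) and had an unadjusted p under 0.05 for 1 (9.78%). The median log2 fold change of the 10 members was −0.05 in LPS and 0.01 in hyperoxia, and that of all genes tested was within 0.003 of 0 in both.

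Between the injuries 8 of the 10 passed, 4 higher in LPS (Cd14, Ticam1, Ticam2 and Irak1) and 4 lower (Ly96, Myd88, Tirap and Traf6), both without and with M2-Exo. Of all genes tested, 75.8% passed without M2-Exo, 37.8% higher and 38.0% lower, and 73.7% with M2-Exo, 36.5% higher and 37.1% lower. The share of members that passed was thus near that of all genes. Both comparisons rest on different libraries, which share the injuries but no sample. The median log2 fold change of the members was 0.17 without M2-Exo and −0.20 with it, the sign turning on Tlr4, which moved from 0.27 to −0.75.

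**Figure D4:**
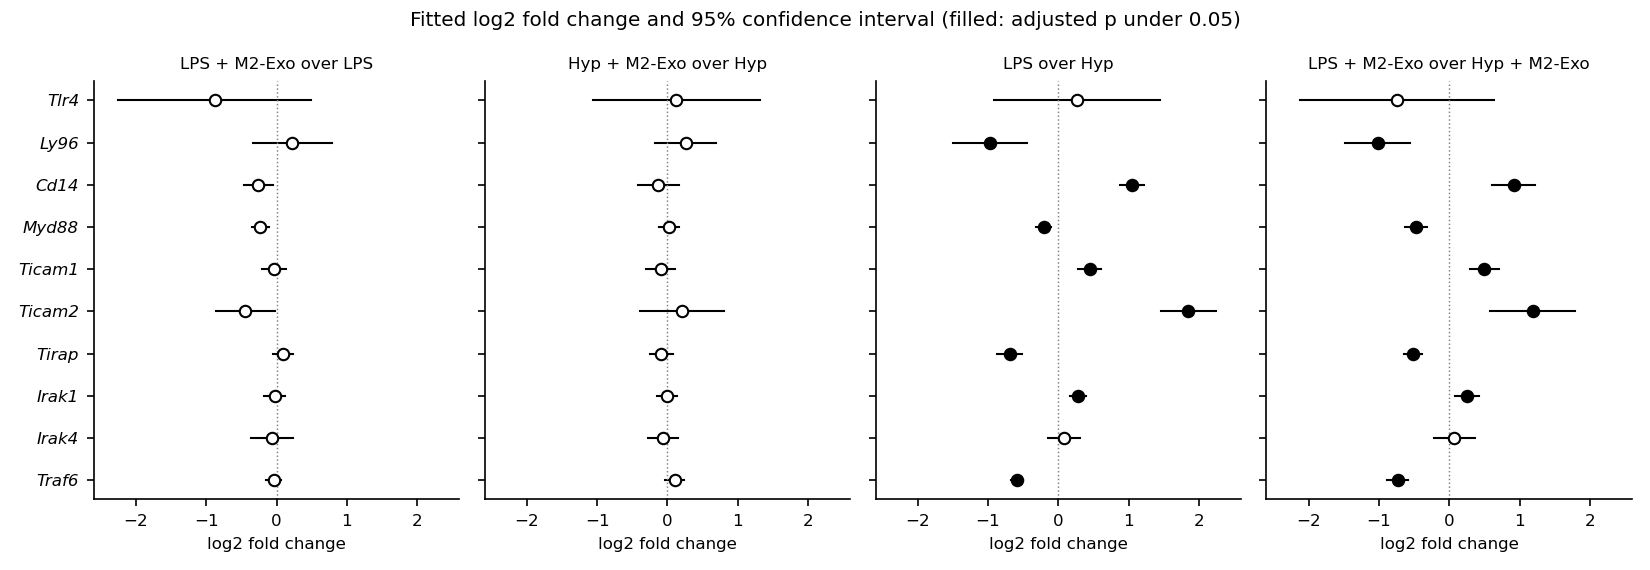
Fitted log2 fold change (point) with 95% confidence interval (line) of the 10 genes in 4 comparisons, filled where the adjusted p was under 0.05. No gene was filled for M2-Exo in either injury, and 8 were filled for LPS over Hyp and again with M2-Exo on both sides.

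The other genes of the pathway were taken as 99 genes in 9 lists by role. With M2-Exo 0 passed by adjusted p in edgeR, of 90 tested in LPS and 86 in hyperoxia. DESeq2 called 2 in LPS, the endosomal receptor Tlr7 (log2 fold change 1.02, DESeq2 adjusted p = 4e-05) and Irf7 (−0.65, adjusted p = 0.0333), and 0 in hyperoxia. At an unadjusted p under 0.05 in edgeR, 3 were higher and 17 lower in LPS, beside 11.1% of all genes in either direction. With any 1 library left out, 1 to 7 were higher and 12 to 19 lower. The split was 7 and 13 without the first LPS + M2-Exo library. In hyperoxia 0 were higher and 7 lower, near the 8.48% of all genes, and with any 1 library left out the 7 became 3 or 4, or 14 without the first Hyp + M2-Exo library. The list that lay lowest in LPS was that of the interferon-stimulated targets of the TRIF arm, with a median log2 fold change of −0.59, all 9 tested genes being fitted lower. Of these, 4 had an unadjusted p under 0.05, named here after their values were seen, the chemokine Ccl5 (−0.65), the interferon-induced genes Ifit1 (−0.80) and Ifit3 (−1.19), and the antiviral GTPase Mx1 (−1.89). Their adjusted p in edgeR ranged from 0.226 to 0.308, and in hyperoxia the median of the list was −0.06 with 0 of 8 at an unadjusted p under 0.05. The largest of these falls rest on few reads. Mx1 had 12 to 24 counts in the LPS libraries and 1 to 6 in the LPS + M2-Exo libraries. Ifit3 had 38 to 88 counts in LPS and 19 to 33 in LPS + M2-Exo. The first LPS library stood above the other replicates, with summed TRIF targets of 161.8 CPM against 131.9 and 132.5 CPM, and Ifit1 at 15.3 CPM against 8.01 and 8.79 CPM. The LPS + M2-Exo libraries held 108.8, 121.3 and 119.3 CPM. Without that library the median of the list was −0.24, with all 9 genes still fitted lower and 4 at an unadjusted p under 0.05. The macrophage markers had a median of −0.32 for M2-Exo in LPS, with 12 of 14 fitted lower, and their part in this list was not tested. The interferon beta gene Ifnb1 had at most 1 count in any library. By contrast the NF-kB targets of the MyD88 arm had a median of −0.03 in LPS, with 2 of 15 lower at an unadjusted p under 0.05.

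Between LPS and Hyp, 50 of 90 other pathway genes were higher in LPS and 22 lower, and with M2-Exo 49 and 23 of 89. Of all genes tested, 75.8% passed without M2-Exo (37.8% higher and 38.0% lower) and 73.7% with it, so the share of pathway genes that passed in either direction was near that of all genes. In the lists of accessory genes and of other Toll-like receptors every gene tested was higher or did not pass, whereas the member Ly96 was lower. Of 8 accessory genes tested 6 were higher, led by Cd180, a B-cell and macrophage receptor related to TLR4 (log2 fold change 2.71), Unc93b1, which escorts endosomal Toll-like receptors (2.41), and Lbp, the LPS-binding protein in serum (2.08). Lbp rose from a mean of 78.7 CPM in Hyp to 333.7 CPM in LPS. Of 7 other Toll-like receptors tested 6 were higher, among them Tlr1 (2.84), which pairs with TLR2 for lipopeptides, and Tlr9 (2.34) and Tlr13 (1.93), which bind nucleic acids. Their medians were 1.10 and 1.70, beside −0.01 for all genes tested. The macrophage markers moved with them, with a median of 1.99 and 12 of 15 higher. Their summed CPM averaged 545.2 in LPS and 133.4 in Hyp, and their part in these lists and in the TRIF targets was not tested.

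Downstream of MyD88, 4 of 14 genes were higher and 5 lower in LPS. For this and the following lists, 37.8% of all genes tested were higher and 38.0% lower. Chuk, the IKK alpha kinase, was lower (−1.06), as were Irak2 (−0.77) and the TAK1-binding adaptor Tab3 (−0.75), and the ubiquitin ligases Peli3 (1.04) and Peli2 (1.04) and the kinase Map3k8 (0.61) were higher. Downstream of TRIF, 4 of 11 were higher, with Irf7, the interferon regulatory factor, first (1.84), followed by the kinase Ikbke (1.08) and Traf3 (0.66), and 4 were lower, including Ripk1 (−0.57), Fadd (−0.38) and Tbk1 (−0.29). Of 7 transcription factors 4 were higher, among them Irf5 (1.68), Nfkb1 (0.82) and Rel (0.46), and 2 lower, Rela (−0.25) and Relb (−0.22). Of 5 genes of the IL-1 receptor family, which shares MyD88, 2 were higher and 1 lower, with Il1r1 at 0.51 and Il1rap at −0.20. Of 14 inhibitors 7 were higher, with Nfkbie (1.28), Tnip1 (1.13) and Irak3 (1.02) in front, and 4 lower, with Nfkbib (−1.28), Tollip (−0.57) and Cyld (−0.43) in front.

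The inflammatory targets split. Of 15 targets of the MyD88 arm 9 were higher and 6 lower in LPS. The acute-phase gene Saa3 rose from 20.8 to 419.9 CPM (log2 fold change 4.34) and the siderophore-binding Lcn2 from 13.6 to 139.2 CPM (3.36). The chemokine Cxcl2 had 112 to 133 counts in the LPS libraries and 0 to 8 in the Hyp libraries. Higher in hyperoxia were the prostaglandin synthase Ptgs2, with 277.1 CPM against 36.2 CPM in LPS (−2.94), the chemokine Ccl20, with 29.7 against 4.23 CPM (−2.81), and the colony-stimulating factor Csf2, with 229 to 258 counts against 7 to 12 in LPS. Of 9 targets of the TRIF arm 8 were higher in LPS and none lower, with Ccl5 (2.51), Ifit1 (2.32) and Ifit3 (2.08) in front. With M2-Exo on both sides 6 of 8 were higher and 1 lower, Rsad2 (−0.75). Of the 18 AT cell markers 14 were tested between LPS and Hyp, 11 being higher and 2 lower in LPS. Of all genes tested in that comparison 75.8% passed, 37.8% higher and 38.0% lower. With M2-Exo 0 of the markers passed in either injury, beside 0.187% of all genes in LPS and 0.101% in hyperoxia.

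**Figure D5:**
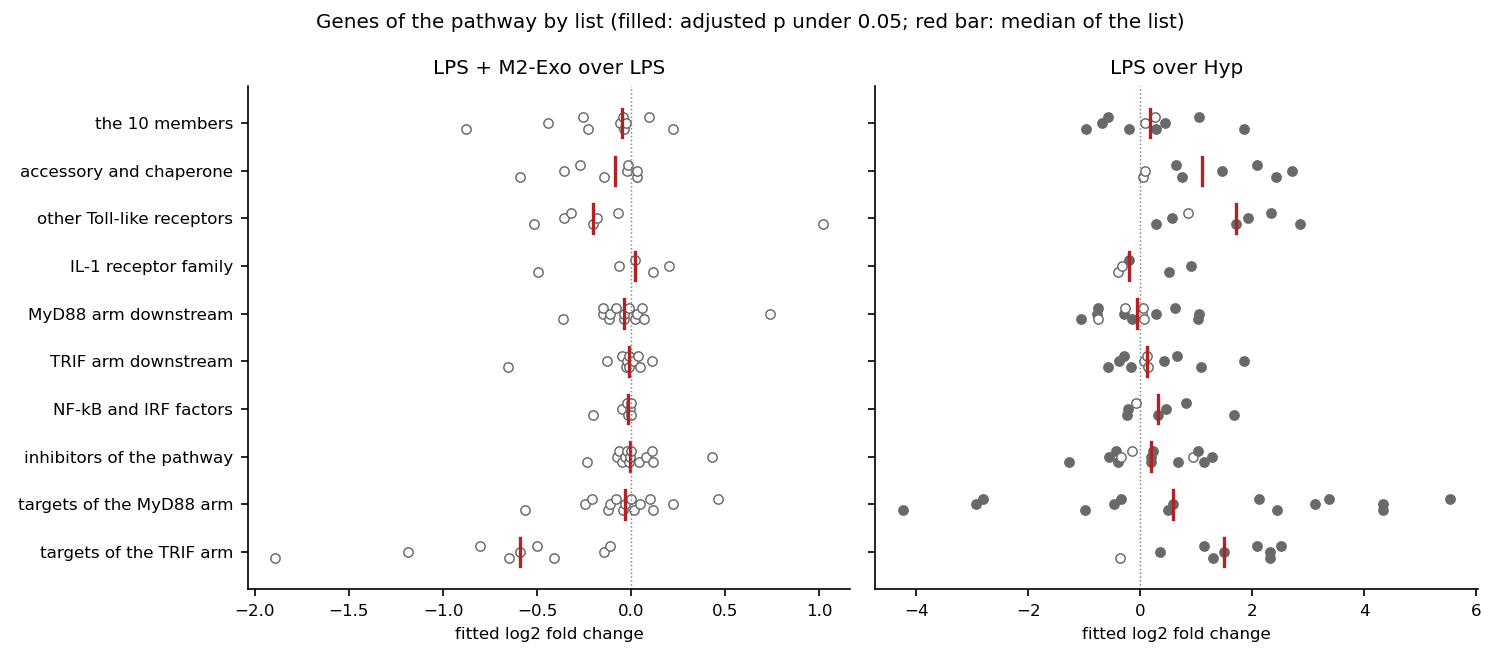
Fitted log2 fold change of the 10 members and of 9 lists of other pathway genes for M2-Exo in LPS (left) and for LPS over Hyp (right), filled where the adjusted p was under 0.05, with a red bar at each list's median. No point was filled on the left, where the TRIF targets had the lowest median (−0.59), whereas the accessory genes (1.10), other Toll-like receptors (1.70) and TRIF targets (1.49) had the highest medians on the right.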

How the data were processed

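Poly(A)-selected RNA of 12 MLE-12 libraries in 4 groups of 3 was sequenced. Reads were filtered with Seqtk, and the submitters' processing notes name HISAT2 2.0.4, StringTie 1.3.0 and GRCm38. The deposited table holds 2 kinds of value per gene and library, raw read counts and FPKM, both made by the authors. How counting handled strand is not given in the sources used here. No column of per-sample values was left unused (0).

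Tests were run on the raw counts with edgeR 4.0.16 under R 4.3.3 (filterByExpr, TMM, quasi-likelihood F test, Benjamini-Hochberg adjustment over all genes tested, threshold 0.05) in separate fits of 6 libraries. The contrast of both M2-Exo effects, LPS minus hyperoxia, was the interaction term over 12 libraries. Standard errors were the fitted log2 fold change divided by the root of F. CPM used TMM factors over 12 libraries (0.9641 to 1.036). FPKM served to compare genes and, tested with limma, as an alternative unit. Levels of closest genes were correlated as log2 CPM (prior count 2), as a description. Alternatives used limma 3.58.1 and DESeq2 1.42.0. The fits were also run on simulated counts with the same dispersion for every gene. That setting does not cover genes as uneven between replicates as Tlr4.

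The members and lists were chosen with earlier results of these data known. All 10 members were named, and of the other pathway genes those with an adjusted p under 0.05 for M2-Exo and, per list, up to 3 rises and 3 falls between the injuries with the largest log2 fold change and, in the group with more reads, 50 or more counts on average. Of members, the 3 closest genes were named for Tlr4, Ly96 and Cd14. Coordinates are those of the deposited table, and 8 of 10 members had the same in GENCODE M21. Correlations of deviations within a replicate number lay between -0.018 and 0.05, and those across numbers between -0.078 and 0.036. They gave no clear sign of pairing by number, but cannot show that the libraries were unpaired. Replicates within every group differed by more than counting noise (chi-square per degree of freedom of 6.68 or more).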

Additional observations from a re-analysis of the deposited data

How the results depend on the processing

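Among the members each setting tested, those called for M2-Exo stayed at 0 in LPS, in hyperoxia and for the difference between the injuries. This held under RLE, library size alone, both other filters, DESeq2, all 12 libraries in a fit where run, and limma on FPKM. They ranged from 0 to 1 with a library left out in LPS (Tlr4, without the third LPS + M2-Exo library, −2.43). Not every setting tested all members. Limma left out Tlr4 and Ticam2. The filter of at least 10 counts in every library left out Tlr4 in LPS and for the difference. DESeq2 gave no adjusted p to Ly96 in LPS, nor to Tlr4, Ly96 and Ticam2 for the difference. Between the injuries 6 to 8 were called under these settings, the smaller ones with M2-Exo by library size alone (7, without Irak1) and with limma, whose minimum mean of 1 FPKM left out Tlr4 and Ticam2 and which with M2-Exo did not call Irak1 (6), and 8 to 9 with a library left out. With the replicate number as a block, 0 members were called for M2-Exo and 8 between the injuries, as without it, but whether the numbers pair the libraries is not known. Over all genes, M2-Exo in LPS gave 25 calls, 6 with the block, 12 in the fit of all libraries and 125 with DESeq2. In hyperoxia these were 14, 8, 2 and 37, and for the difference 5, 3 with the block, 67 with DESeq2 and 13 with no filter. With a library left out, they were 21 to 39 in LPS (39 without the first LPS library), 12 to 21 in hyperoxia and 4 to 34 for the difference (34 without the first Hyp + M2-Exo library, 8 to 10 without the first LPS, the third LPS, the second LPS + M2-Exo or the second Hyp library).

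Of the other pathway genes, DESeq2 called 2 for M2-Exo in LPS, Tlr7 (1.02) and Irf7 (−0.65), and leaving out a library gave 0 to 1 in LPS (Tlr7) and 0 to 1 in hyperoxia (Tab2, without the first Hyp + M2-Exo library). These were named after their values were seen.

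Library size alone shifted the median log2 fold change of all genes between LPS and Hyp from −0.009 to −0.10 and limma on log2(FPKM + 0.1) to −0.11. Irak4 then changed sign, to −0.008 and −0.015 without and with M2-Exo for library size, −0.009 and −0.022 for that FPKM setting and −0.006 and −0.013 with a pseudocount of 1. Irak1 for M2-Exo in hyperoxia became 0.001 in the fit of all libraries.

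With a library left out, signs turned for M2-Exo in LPS in Ticam1 (−0.095 to 0.012), Irak1 (−0.074 to 0.033) and Irak4 (−0.195 to 0.014), and in hyperoxia in Irak1 (−0.049 to 0.032), Tlr4 (−0.34 to 0.58) and Myd88 (−0.024 to 0.077). Between the injuries they turned in Tlr4 without M2-Exo (−0.20 to 0.71) and Irak4 with it (−0.053 to 0.156), and for the difference in Ly96 (−0.181 to 0.215), Ticam1 (−0.024 to 0.128), Irak1 (−0.072 to 0.032) and Irak4 (−0.141 to 0.070). None of these had passed the test. The cause was not tested. Tlr4, Ly96 and Ticam2 had few counts, 9 to 106 per library.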
